A study of Mus musculus with 12 samples.

Results

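The response to activin was followed in embryoid bodies in which Trim33 was knocked down. Its 4 samples are Trim33-KD-ac replicates 1 and 2, treated with activin at 50 ng/ml, and Trim33-KD-SB replicates 1 and 2, treated with SB431542, an inhibitor of the type I receptors for activin and nodal (the labels give its dose as 10 mM). They were chosen by their titles from the 12 samples of the study, and the response is the log2 signal with activin minus that with SB431542, read over 18193 genes with 1 probe set each. The other 8 samples are wild-type (WT) and Smad4-null embryoid bodies under the same treatments, 2 per group. All were aggregates of mouse embryonic stem cells of strain 129, grown without LIF in ultra-low attachment dishes and treated for 2 h at day 2.5, with 1 Affymetrix array per sample. The title of the study asks which nodal and activin responsive genes depend on Smad4 and on Trim33. No group was left untreated, so a value compares added activin with blocked receptors and cannot tell the 2 effects apart. The sources used here do not give how the knock-down was made or whether it is 1 clone. Nor do the labels say that replicates were separate cultures, so the spread behind each p-value is that between these samples and may be technical.

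Activin and nodal bind receptor kinases that phosphorylate Smad2 and Smad3. These proteins enter the nucleus with Smad4 and act with DNA-binding partners such as Foxh1 on target genes, many of which encode inhibitors of the pathway itself. Trim33, also called TIF1-gamma, is a nuclear ubiquitin ligase with a histone-reading domain that binds phosphorylated Smad2 and Smad3 and has been linked to the opening of mesendoderm gene promoters, among them those of Gsc and Mixl1. In early embryoid bodies this pathway drives cells from an epiblast-like state towards mesoderm and endoderm.

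The knock-down was read first. Trim33 was at 10.29 and 10.25 (log2) on the Trim33-KD arrays with activin and at 10.35 and 9.85 on those with SB431542, against 11.58 to 11.95 on the 4 WT arrays. The groups did not overlap, and 34.4% of the WT signal was left (log2 difference -1.54, limma adjusted p = 0.0101 over all genes, of which 0.203% were lowered between these genotypes); without Trim33-KD-ac replicate 2 the adjusted p was 0.0526. A further bright Trim33 probe set left 30.3%. The treatment itself left Trim33 within its spread in Trim33-KD (0.17, SE 0.19). The median absolute difference between the 2 Trim33-KD arrays of a treatment was 0.144 with activin and 0.138 with SB431542 in the brighter 50% of genes, where the other groups had 0.0927 to 0.195. Trim33-KD-SB replicate 2 had the highest 18S rRNA signal of the 12 arrays (10.16) and the largest Actb 3' minus 5' difference (0.74), a sign of RNA quality. Its Gapdh 3' minus 5' difference (-0.312) lay within the range of the other arrays (-0.342 to -0.227). The summed linear signal of 9 pluripotent cell markers was 67980 and 68450 with activin and 65320 and 66430 with SB431542. Of the markers of other cell types, the 10 extraembryonic endoderm genes summed to 2420 to 2502 and 2411 to 2440, and the 10 fibroblast genes to 813 to 840 and 804 to 901. The 8 trophectoderm genes summed to 3009 and 3019 on the replicate 1 arrays and to 7388 and 6896 on the replicate 2 arrays. Most of this sum was Krt8, at 11.18 and 11.22 on replicate 1 and at 12.66 and 12.55 on replicate 2 (activin, SB431542), while Cdx2, at 8.17 and 8.28 against 8.57 and 7.97, did not follow the replicate number. Ascl2, at 6.83 and 6.83 against 7.67 and 8.17, was higher on replicate 2. The trophectoderm list member Elf5 was at 2.26 to 3.95, in the dim range. Of the endoderm list, Afp was dim at 1.24 to 2.44, Amn was at 6.90 to 7.26, and the highest signal of any member was 10.7.

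Activin raised 13 bright genes in Trim33-KD and lowered none. Over all 18193 genes, 2 passed a limma adjusted p of 0.05, both higher with activin (0.011%): Fgf15, the mouse FGF19-type growth factor, and Msx1, a homeobox gene of early mesoderm. At an unadjusted p under 0.05, 332 genes were higher (1.82%) and 434 were lower (2.39%), none of the latter past adjustment. Without Trim33-KD-ac replicate 2, neither of the 2 genes passed over all genes, and 0 to 3 genes were called with 1 array left out. Replicates lay closest in the brighter genes. When the same model was fitted to the 9097 genes of highest mean signal over the 12 arrays (the upper 50%, mean of at least 7.48), 13 were raised (0.143%) and 0 lowered. In that fit 178 genes were higher (1.96%) and 139 lower (1.53%) before adjustment at p under 0.05. The adjusted p-values below are from this fit; the differences are the same in both fits, and standard errors (SE) and 95% intervals are from the fit over all genes.

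**Figure D1:**
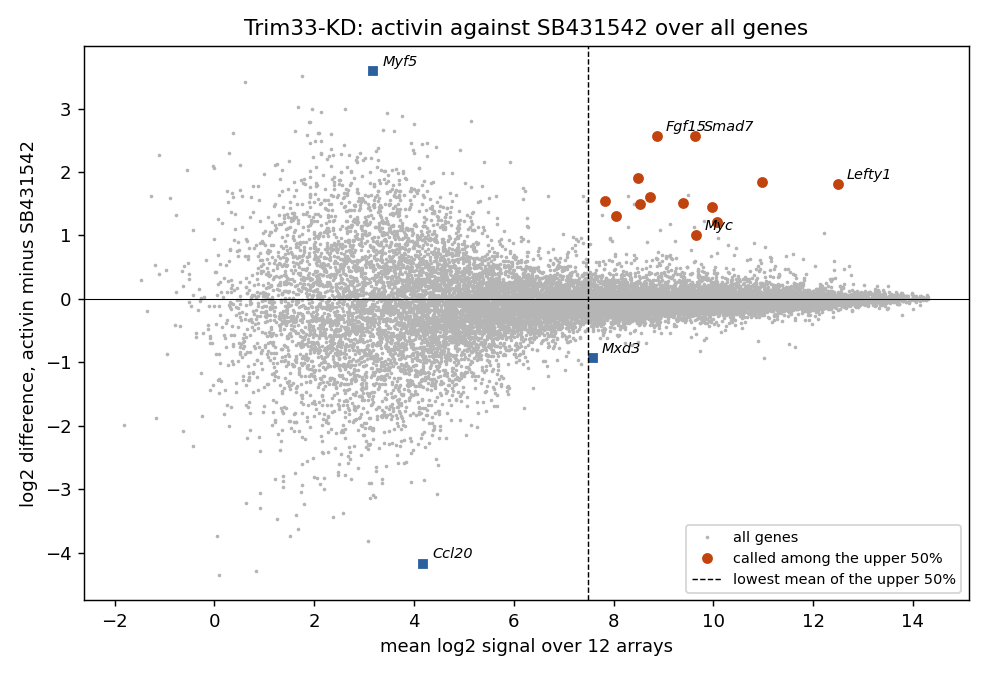
Log2 difference between activin and SB431542 in Trim33-KD (vertical axis) against mean log2 signal over 12 arrays (horizontal axis), 1 grey point per gene of 18193; orange points are the 13 genes called among the upper 50%, blue squares mark Myf5, Ccl20 and Mxd3, and the dashed line is the lowest mean of the upper 50% (7.48). To the right of the line the orange points lie between 1.0 and 2.56, and to its left differences of either sign past 3 occur in dim genes.

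The 13 genes fall into feedback inhibitors of Smad signalling (Smad7, Pmepa1), secreted nodal antagonists (Lefty1, Lefty2), a growth factor and receptors (Fgf15, Epha2, Fzd10, Relt), transcription factors (Msx1, Irf1, Prdm1, Myc) and a sulfotransferase (Chst15). Their differences ran from 1.0 to 2.56 with a median of 1.55, and in all 13 both activin arrays were above both SB431542 arrays. Over all upper 50% genes, 9.46% had both activin arrays above and 17.4% had both below, so the lack of overlap was frequent in itself. A difference of at least 2-fold without overlap was found in 22 of the 9097 upper genes upwards (0.242%) and in 0 downwards.

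Promoter windows from RefSeq (build GRCm38.p6, 250 bases before to 50 after an annotated start) matched 7 of the 13 genes: Irf1, Msx1, Fzd10, Chst15, Relt, Epha2 and Prdm1. They were searched on both strands for the Smad box CAGAC, the GC-rich Smad element GGCGCC and the Foxh1 element AATNCACA. The 7 genes had 9 windows. The Smad box was in 5 of the 9 windows, from 4 of the 7 genes, and in 49.6% of all 32851 windows. The Smad box of Chst15 lies in both of its overlapping windows. The GC-rich element was in 2 of the 9 windows, from 2 genes (11.9% of all windows), and the Foxh1 element in 1 of the 9 (3.6%). Shown 5' to 3' with matches in capitals, which do not overlap, are 3 windows that hold matches and that of Msx1, one of the 2 genes called over all genes, which holds none: Fzd10 (chr5:128600856-128601155, plus strand) with 1 Smad box and 2 GC-rich elements, Chst15 (chr7:132317179-132317478, minus strand) with 1 Smad box and 1 Foxh1 element, Prdm1 (chr10:44458699-44458998, minus strand) with 3 Smad boxes, and Msx1 (chr5:37824536-37824835, minus strand).
Fzd10: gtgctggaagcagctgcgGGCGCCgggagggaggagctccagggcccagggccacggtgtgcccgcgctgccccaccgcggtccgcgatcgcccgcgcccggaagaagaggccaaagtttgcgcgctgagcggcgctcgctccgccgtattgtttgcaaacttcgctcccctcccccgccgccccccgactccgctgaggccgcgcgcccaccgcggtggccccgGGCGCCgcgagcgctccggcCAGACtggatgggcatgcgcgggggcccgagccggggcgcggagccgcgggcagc
Chst15: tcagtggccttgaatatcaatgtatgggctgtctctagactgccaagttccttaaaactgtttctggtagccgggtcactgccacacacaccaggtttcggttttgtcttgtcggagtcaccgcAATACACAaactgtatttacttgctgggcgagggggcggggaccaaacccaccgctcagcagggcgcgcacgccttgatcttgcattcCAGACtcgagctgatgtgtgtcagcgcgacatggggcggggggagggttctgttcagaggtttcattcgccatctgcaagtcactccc
Prdm1: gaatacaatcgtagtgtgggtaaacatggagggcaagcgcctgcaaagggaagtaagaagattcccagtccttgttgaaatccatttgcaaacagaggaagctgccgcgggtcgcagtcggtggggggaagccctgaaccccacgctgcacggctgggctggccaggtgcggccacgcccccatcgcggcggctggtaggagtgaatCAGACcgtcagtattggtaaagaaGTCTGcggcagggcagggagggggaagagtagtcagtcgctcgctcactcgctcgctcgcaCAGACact
Msx1: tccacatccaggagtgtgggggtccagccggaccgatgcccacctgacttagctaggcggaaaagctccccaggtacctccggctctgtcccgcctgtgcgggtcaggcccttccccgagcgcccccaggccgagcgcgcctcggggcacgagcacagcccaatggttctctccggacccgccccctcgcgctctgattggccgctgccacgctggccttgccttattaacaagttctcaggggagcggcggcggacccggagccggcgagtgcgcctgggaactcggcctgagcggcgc
A match here is a run of letters and not a measured binding site.

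Smad7, which blocks the receptors' access to Smad2 and Smad3, had the largest of the 13 differences, just above that of Fgf15. It was at 11.39 and 11.68 with activin and at 8.64 and 9.30 with SB431542, a 5.92-fold rise (log2 2.56, SE 0.27, limma adjusted p = 0.000443). Both activin arrays stood over 2 log2 units above the higher SB431542 array. A dimmer, cross-hybridizing Smad7 probe set (mean 6.38) had a difference of 0.02 in Trim33-KD and 2.08 in WT, and with the mean of both probe sets Smad7 was not called. Pmepa1, a membrane protein that binds Smad2 and Smad3 and keeps them from the receptor, was at 9.82 and 9.87 against 7.73 and 8.15 (1.91, SE 0.20, limma adjusted p = 0.000443). Its other 2 probe sets gave 2.09 and 3.62. Of the other 9 measured members of the Smad feedback list, none passed the adjusted test. Skil, a Smad co-repressor, had 0.47 (unadjusted p = 0.0147) and Smad6, which acts mainly on the BMP branch, 0.86 (unadjusted p = 0.022). Ski was at 0.26, Bambi at 0.21, Tgif1 at 0.24, Tgif2 at 0.10, Smurf1 at -0.14, Smurf2 at -0.04 and the dim Ldlrad4 at -1.0. The median over the 11 was 0.24, against -0.05 over all genes. At an unadjusted limma p under 0.05, 4 of 11 were higher, Smad7 and Pmepa1 among them, against 1.82% of all genes.

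The nodal antagonists Lefty1, the brightest of the 13, and Lefty2 rose. Lefty1 was at 13.51 and 13.70 with activin and at 11.50 and 12.09 with SB431542, 3.50-fold higher (1.81, SE 0.24, limma adjusted p = 0.00326). Lefty2 was at 11.14 and 11.23 against 9.81 and 10.14 (1.21, SE 0.15, limma adjusted p = 0.00326). Lefty proteins bind nodal and its co-receptor and limit its range. The activin antagonist Fst, at 11.97 and 11.38 against 12.42 and 11.35, overlapped between treatments (-0.21), and Cer1, a secreted inhibitor of nodal, Wnt and BMP, did too (0.01). Of the ligands and co-receptors, Nodal was at 12.42 and 12.28 against 11.75 and 11.53. Its arrays did not overlap, but the difference of 0.71 (SE 0.19) did not pass (limma adjusted p = 0.345). A second Nodal probe set gave 0.66. Tdgf1, the co-receptor also called Cripto, had 0.38 and likewise did not pass. None of the 10 receptors and transducers was called or had an unadjusted p under 0.05. Smad2 (-0.03), Smad3 (-0.07), Smad4 (0.07), Foxh1 (-0.04), Acvr1b (0.03) and Tgfbr1 (-0.05) all lay within 0.1 of no difference.

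Fgf15 had the smallest p-value in the response. It was at 9.64 and 9.74 with activin and at 7.32 and 6.94 with SB431542, 5.91-fold higher (2.56, SE 0.14, limma adjusted p = 0.00311 over all genes). The 2 activin arrays differed from each other by far less than from either SB431542 array. Fgf8, an FGF of the primitive streak, was at 11.49 and 10.70 against 10.24 and 9.50 (1.23, SE 0.31), with replicate 1 higher under both treatments, and did not pass (limma adjusted p = 0.236). The other FGF ligands and receptors of the list ranged from -0.53 (Fgf10, dim) to 0.41 (Fgf3, dim), and 1 of the 10 was called. Epha2, an ephrin receptor, was at 10.69 and 10.76 against 9.36 and 9.22 (1.44, SE 0.14, limma adjusted p = 0.000443). Fzd10, a Wnt receptor, was at 8.75 and 8.94 against 7.21 and 7.39 (1.55, SE 0.18, limma adjusted p = 0.00155). It was the only one of 16 Wnt ligands and Frizzled receptors to pass. Fzd8 (0.47) and Fzd7 (0.35) had both activin arrays above without passing. Relt, a receptor of the TNF family, was at 9.38 and 9.64 against 7.82 and 8.20 (1.5, SE 0.23, limma adjusted p = 0.00934). Chst15, which sulfates chondroitin, was at 10.50 and 10.17 against 8.90 and 8.76 (1.51, SE 0.20, limma adjusted p = 0.00346), and its dimmer probe set gave 3.47.

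The transcription factors raised were Msx1, Irf1, Prdm1 and Myc. Msx1 was at 9.93 and 9.89 with activin and at 8.44 and 8.16 with SB431542 (1.61, SE 0.12, limma adjusted p = 0.0143 over all genes), and a further probe set gave 1.26. It is also a BMP target. Of the 11 other BMP targets measured none was called, with Id1 at 0.96, Id4 at 0.68 and Id3 at 0.03. Irf1, an interferon-induced factor, was at 11.66 and 12.12 against 9.84 and 10.26 (1.84, SE 0.19, limma adjusted p = 0.000443). Myc was at 10.28 and 10.55 against 9.50 and 9.33 (1.0, SE 0.15, limma adjusted p = 0.00936). Of the other 16 immediate early and Myc family genes none was called. Mycn had 0.31, Junb 0.57, Egr1 -0.52 and Fos -0.05. Prdm1, a repressor needed for germ cell specification and also made in early endoderm, was at 8.22 and 8.73 against 7.13 and 7.20 (1.31, SE 0.23, limma adjusted p = 0.0243). The other 6 measured germ cell genes ranged from -0.09 to 0.16. The call of Prdm1 was lost without any of Trim33-KD-ac replicate 2, Trim33-KD-SB replicate 1, Trim33-KD-SB replicate 2 or either Smad4-null-SB array, and also with quantile normalization or probe sets averaged per gene. That of Relt was lost without Trim33-KD-ac replicate 2 or Trim33-KD-SB replicate 1 and with array weights, and that of Myc without Trim33-KD-ac replicate 2 or Trim33-KD-SB replicate 2 and with a replicate block within each genotype. With only the 4 Trim33-KD arrays in the fit, these 3 genes, Chst15, Irf1, Lefty1 and Lefty2 were not called. Smad7 was not called with probe sets averaged per gene.

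**Figure D2:**
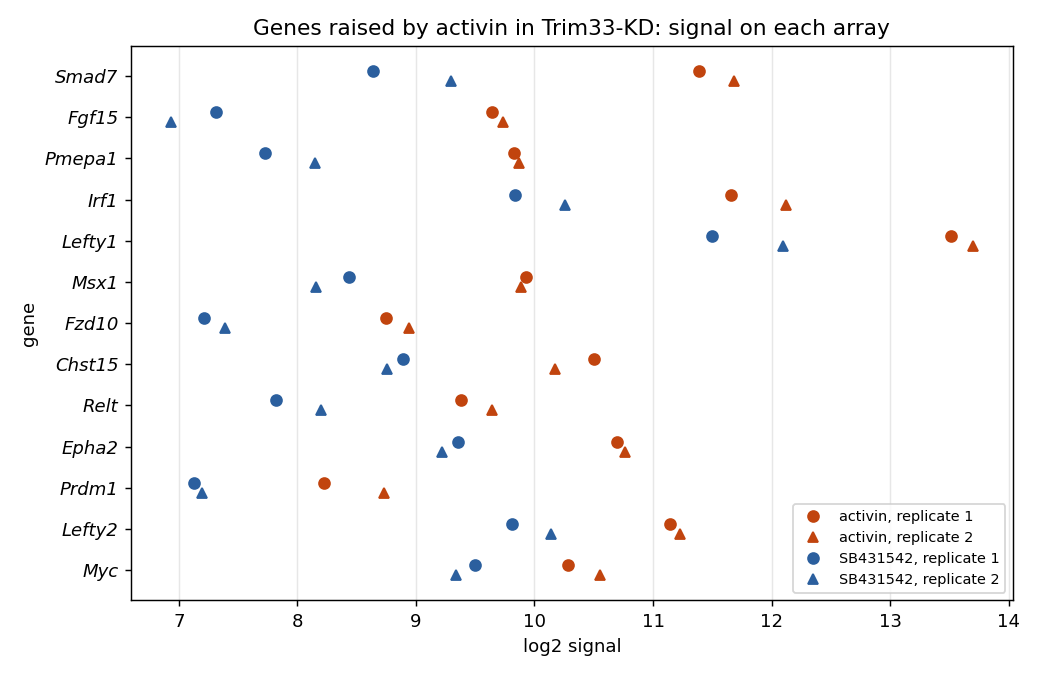
Log2 signal (horizontal axis) of the 13 genes called among the upper 50% (rows, by size of the difference) on the 4 Trim33-KD arrays; orange is activin, blue is SB431542, circles are replicate 1 and triangles replicate 2. In each of the 13 rows both orange marks lie to the right of both blue marks, from Smad7 (11.39 and 11.68 against 8.64 and 9.30) to Myc (10.28 and 10.55 against 9.50 and 9.33).

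Mesendoderm factors, the genes with which primitive streak cells begin to form mesoderm and endoderm, had no member called. In Gsc, Mixl1, Foxa2 and Eomes the differences were positive and the activin replicates lay far apart. Gsc was at 8.31 and 6.93 with activin and at 6.24 and 5.52 with SB431542 (1.74, SE 0.62, unadjusted p = 0.0241), a gene outside the upper 50%. Mixl1 was at 10.43 and 9.09 against 8.52 and 8.01 (1.49, SE 0.45, limma adjusted p = 0.444). Foxa2 was at 10.32 and 8.61 against 8.62 and 8.15, so that the second activin array reached only the first SB431542 array. Eomes, at 11.53 and 10.74 against 10.80 and 10.51, overlapped between treatments on its brightest probe set (0.48). A second Eomes probe set, nearly as bright (mean 10.12 against 10.26 over the 12 arrays), gave a larger difference of 0.72. In these 4 genes replicate 1 was higher than replicate 2 with either treatment, and the gap between activin arrays was 0.80 to 1.71. Over the 10 measured members the median was 0.45, with 0 called. Of them, 2 were higher at an unadjusted limma p under 0.05 (1.82% of all genes). Both activin arrays were above in 5 (10.8% of all genes). Evx1 (0.53), Gata6 (0.41), Foxa1 (0.42), Lhx1 (0.39), Hhex (-0.21) and Sox17 (-0.01) had smaller values. None of 11 nascent mesoderm genes was called, and their median was -0.03.

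For Mixl1 and Gsc the 95% interval of the response difference from WT held 0. Mixl1 responded by 2.12 in WT (response difference -0.62, 95% interval -2.11 to 0.87) and Gsc by 2.08 (-0.34, -2.38 to 1.70). The levels reached were lower in Trim33-KD. With activin, Mixl1 was at 11.22 and 11.35 in WT, above both Trim33-KD arrays (difference -1.52, -2.58 to -0.47), and Gsc at 9.04 and 9.22, also above both. With SB431542, Mixl1 was at 9.17 on each WT array and Gsc at 7.07 and 7.04, again above the Trim33-KD arrays. These level differences, each within 1 treatment, did not pass either (limma adjusted p = 0.106 for Mixl1 with activin). With both treatments averaged, the Trim33-KD signal was 43.2% of that in WT for Mixl1 and 39.4% for Gsc. Eomes was also lower in Trim33-KD than in WT with both treatments averaged (log2 difference -0.87, limma adjusted p = 0.00823 among the upper 50%). In that comparison 3.95% of the upper 50% were lowered and 4.73% raised. In the Smad4-null embryoid bodies Mixl1 was at 6.31 and 5.49 with activin and at 6.23 and 5.83 with SB431542, below each Trim33-KD array. The Smad4-null difference between treatments was -0.13 for Mixl1, 0.25 for Foxa2, 0.69 for Eomes and 2.68 for Gsc, which is outside the upper 50%. The second Eomes probe set gave 0.01 in Smad4-null. Gsc had a mean log2 signal of 6.2 over the 12 arrays, below each of its WT arrays, so its Smad4-null difference is one of a dim gene.

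**Figure D3:**
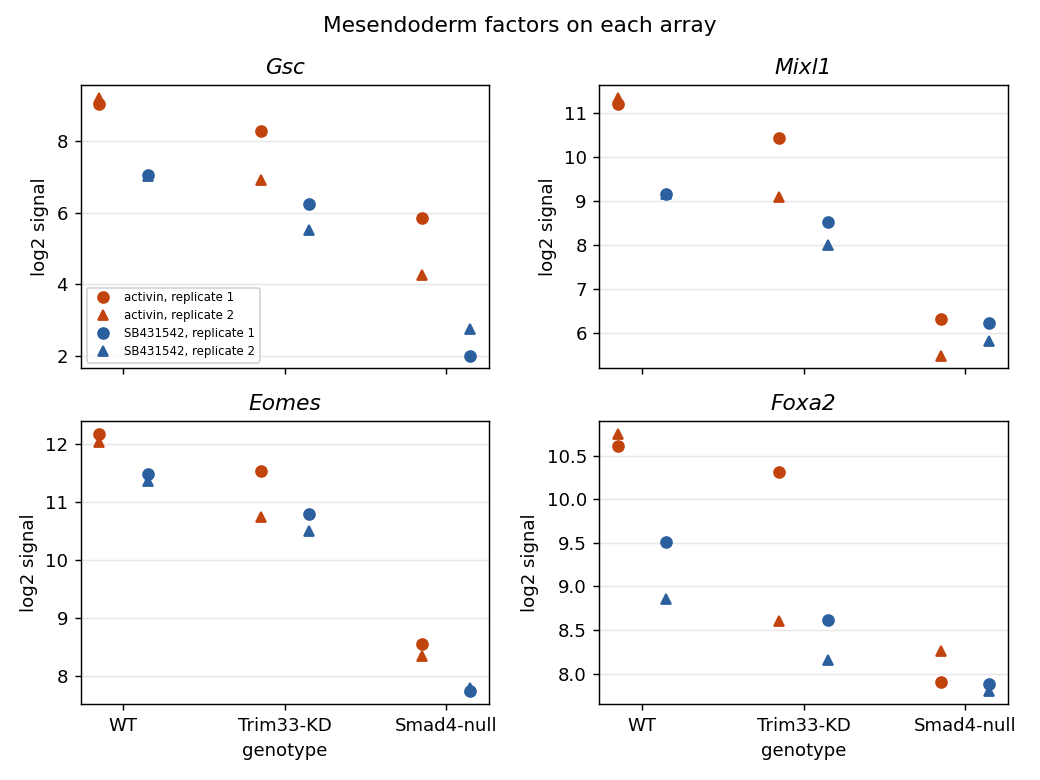
Log2 signal (vertical axes) of Gsc, Mixl1, Eomes and Foxa2 on each array by genotype (horizontal axis); orange is activin, blue is SB431542, circles are replicate 1 and triangles replicate 2. In Trim33-KD the circle lies above the triangle of the same treatment in all 4 panels, and with activin Mixl1 is at 10.43 and 9.09 there against 11.22 and 11.35 in WT.

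In the lists for matrix genes, Wnt targets, pluripotency and primed epiblast no gene was called. In the TGF-beta matrix list Ccn2, a matricellular protein, was at 11.38 and 11.81 against 10.58 and 10.85 (0.88, limma adjusted p = 0.141) and Ccn1 had 0.45. The Notch effector Hes1 was at 10.30 and 10.47 with activin and at 7.97 and 9.52 with SB431542 (1.64, SE 0.44, limma adjusted p = 0.275), with the SB431542 arrays 1.55 apart. Wnt targets had 0 of 9 called, with Axin2 at 0.45 and Notum at 0.30. In the naive pluripotency list Nanog was at 12.80 and 12.60 against 12.01 and 12.19 (0.60, SE 0.14, limma adjusted p = 0.242), and Klf2, at -0.40, was its most negative member. The other members lay between -0.16 and 0.76. Otx2, a factor of primed epiblast, was at 10.96 and 10.52 against 9.79 and 10.06 (0.81, SE 0.18, limma adjusted p = 0.141). The lists for ATF4 stress, p53 targets, cell cycle, hypoxia and glycolysis, neuroectoderm, Trim33 relatives and HP1, and housekeeping had 0 called and medians between -0.14 and 0.02. The cell type marker lists had 0 called each.

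**Figure D4:**
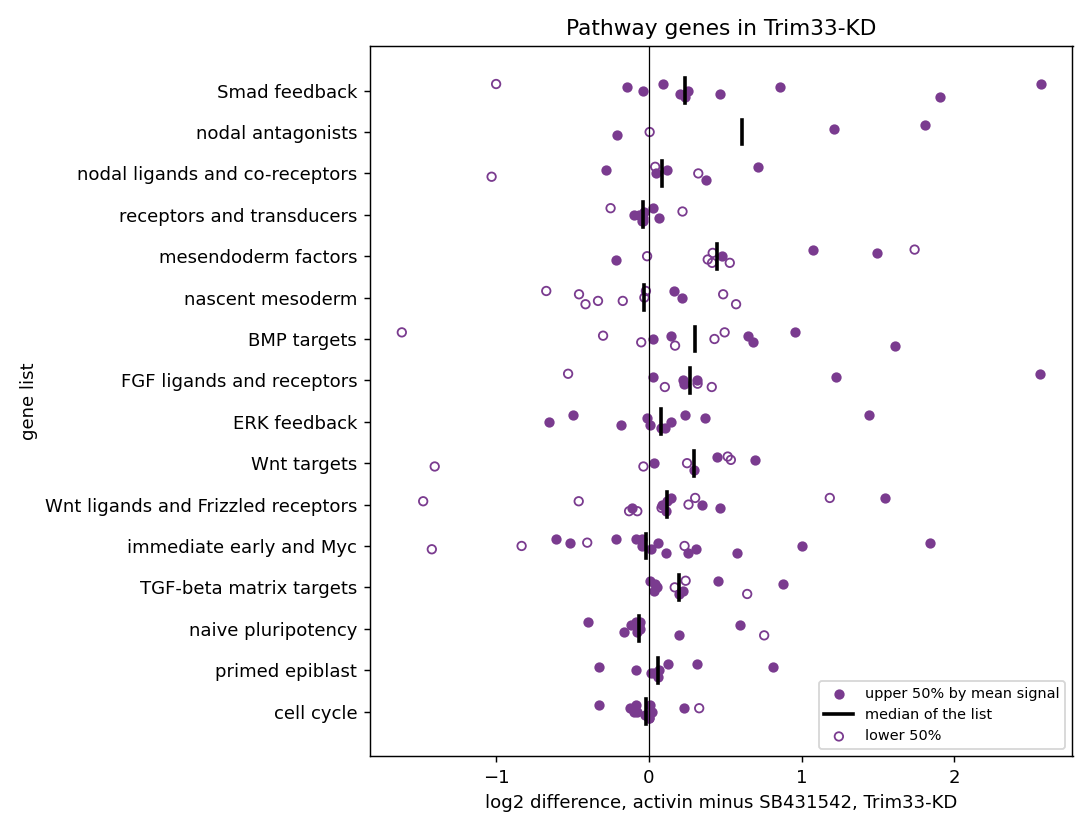
Log2 difference between activin and SB431542 in Trim33-KD (horizontal axis) for the measured genes of 16 lists (rows); filled points are genes of the upper 50% by mean signal, open points the lower 50%, and the black bar is the median of the list. The bars lie between -0.06 (naive pluripotency) and 0.61 (nodal antagonists), and the filled points furthest to the right are Smad7 and Fgf15 at 2.56.

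No gene of the upper 50% was called lower with activin. The most negative of these genes with arrays that do not overlap was Mxd3, a Myc antagonist of the Mad family, at 7.47 and 6.56 with activin against 8.11 and 7.80 (-0.94, SE 0.30, limma adjusted p = 0.581). Its other 2 probe sets, somewhat dimmer, gave -0.003 and -0.29. Txnip, a thioredoxin inhibitor, was at 10.49 and 10.27 against 10.93 and 11.18 (-0.67, limma adjusted p = 0.25), and its WT difference was -0.76. A second Txnip probe set gave -0.40. In the ERK feedback list Spry4, at 9.45 and 9.87 against 10.38 and 10.24, had -0.66, with -0.39, -0.04 and 0.19 on its 3 dimmer probe sets, and the phosphatase Dusp4 had -0.50. Epha2 was the only one of the 11 measured members that was called. In the lower 50% larger values occurred that also did not pass. The chemokine Ccl20 was at 2.61 and 3.92 with activin and at 7.35 and 7.52 with SB431542 (-4.17, SE 0.63, unadjusted p = 0.000237), and in WT at 2.49 and 3.34 against 6.54 and 6.64. In both genotypes its activin arrays lay below, as in 19.6% of all genes in Trim33-KD and 17% in WT. In Smad4-null Ccl20 was dim under either treatment, at 3.54 and 1.78 with activin and at 1.98 and 2.50 with SB431542. Myf5, a myogenic factor, was at 6.68 and 6.39 against 2.86 and 3.03 (3.59, unadjusted p = 0.00687) and differed by 4.92 in WT. Tmprss11g (-4.35) and Cerkl (-4.28) were dimmer than a log2 signal of 4 on each Trim33-KD array.

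The responses of the 13 genes were set beside those in WT. Of the 13, 12 were also among the 14 genes called in WT within the upper 50% (0.154%), with Prdm1 as the exception. Both WT activin arrays were above in all 13 (9.81% of the upper 50%), and the median difference was 1.59 in WT and 1.55 in Trim33-KD. The 95% interval of the response difference, Trim33-KD minus WT, held 0 for 12 of the 13, and the estimates ran from -1.0 to 0.62. Such an interval still allows sizeable differences: for Smad7 it was -1.45 to 0.35 and for Myc -0.61 to 0.35. Lefty1 was the exception. Its response was 1.81 in Trim33-KD and 2.81 in WT (difference -1.0, -1.8 to -0.20), which did not pass over many genes (unadjusted p = 0.0213). The gap was on the SB431542 side, where Lefty1 was at 11.50 and 12.09 in Trim33-KD and at 10.62 and 10.05 in WT (difference 1.46, limma adjusted p = 0.0107 among the upper 50%, where 0.791% of genes were raised and 0.363% lowered between these groups). With activin the levels were 13.51 and 13.70 against 13.16 and 13.13 (difference 0.46, -0.11 to 1.03). Lefty2 was higher in Trim33-KD under both treatments, by 0.77 with SB431542 and 0.78 with activin (limma adjusted p = 0.0273 and 0.0322; with activin 0.495% of the upper 50% were raised and 0.176% lowered). Fgf15 was lower with SB431542 in Trim33-KD, by a difference of -0.75 (limma adjusted p = 0.0216).

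No gene passed the test of the response difference between Trim33-KD and WT, over all genes or within the upper 50% (limma, adjusted p). Before adjustment, at p under 0.05, 282 genes had a larger value in Trim33-KD (1.55%) and 203 a smaller one (1.12%). The largest of the upper 50% was Brsk1, a kinase of neuronal polarity, at 8.32 and 8.49 with activin and 6.79 and 7.36 with SB431542 in Trim33-KD. In WT it was at 7.85 and 7.02 against 8.07 and 8.31 (response difference 2.08, 0.74 to 3.41). Spsb1, a ubiquitin ligase adaptor known to act on the TGF-beta receptor, was at 8.66 and 9.03 against 7.65 and 7.79 in Trim33-KD (1.13, limma adjusted p = 0.0575 within the upper 50%) and differed by 0.34 in WT (response difference 0.79, 0.07 to 1.5). Its dimmer probe sets gave 0.41, 1.10 and 0.42 in Trim33-KD and -0.04, 1.16 and 0.76 in WT, so not all had the larger value in Trim33-KD. Nrarp, a Notch inhibitor called in WT (0.79), was at 8.62 and 8.28 against 8.17 and 8.16 in Trim33-KD (0.28; response difference -0.51, -0.95 to -0.07). Rnd3, called in WT at 0.96, had 0.92 in Trim33-KD (limma adjusted p = 0.067).

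The embryoid bodies labelled Smad4-null should lack the common Smad partner. Their brightest Smad4 probe set was at 12.10 to 12.24, against 11.90 to 12.03 in WT; the position of this probe set relative to the mutation is unknown here, so it does not check the label. The same 13 genes had a median response of 0.52 in the samples so labelled, and both activin arrays were above in 11 of 13 (23.4% of the upper 50%). The response difference, Trim33-KD minus Smad4-null, had an interval above 0 for 12 of 13. The 13 genes were chosen for a large response on these same Trim33-KD arrays, which pushes this difference, and that from WT, upwards, so the count is a description. Over all genes none passed this test, with 269 larger in Trim33-KD (1.48%) and 848 smaller (4.66%) at p under 0.05 before adjustment. Of the upper 50%, Fgf15 passed (0.011%): its response was 2.56 in Trim33-KD and 0.63 in Smad4-null, where it was at 9.50 and 9.54 with activin and at 8.84 and 8.93 with SB431542 (difference 1.93, 1.47 to 2.39, limma adjusted p = 0.00377). It was not called when the 2 arrays of narrowest spread, Smad4-null-ac replicate 1 and WT-SB replicate 2, were left out together. Smad7 had the largest difference, 2.33 (1.43 to 3.23, limma adjusted p = 0.0941), since it was at 8.82 and 9.02 with activin and at 8.52 and 8.85 with SB431542 in Smad4-null. Lefty1 was the gene whose interval held 0 (0.55, -0.25 to 1.36), with a Smad4-null response of 1.26. The tests of the 2 response differences share the Trim33-KD arrays.

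**Figure D5:**
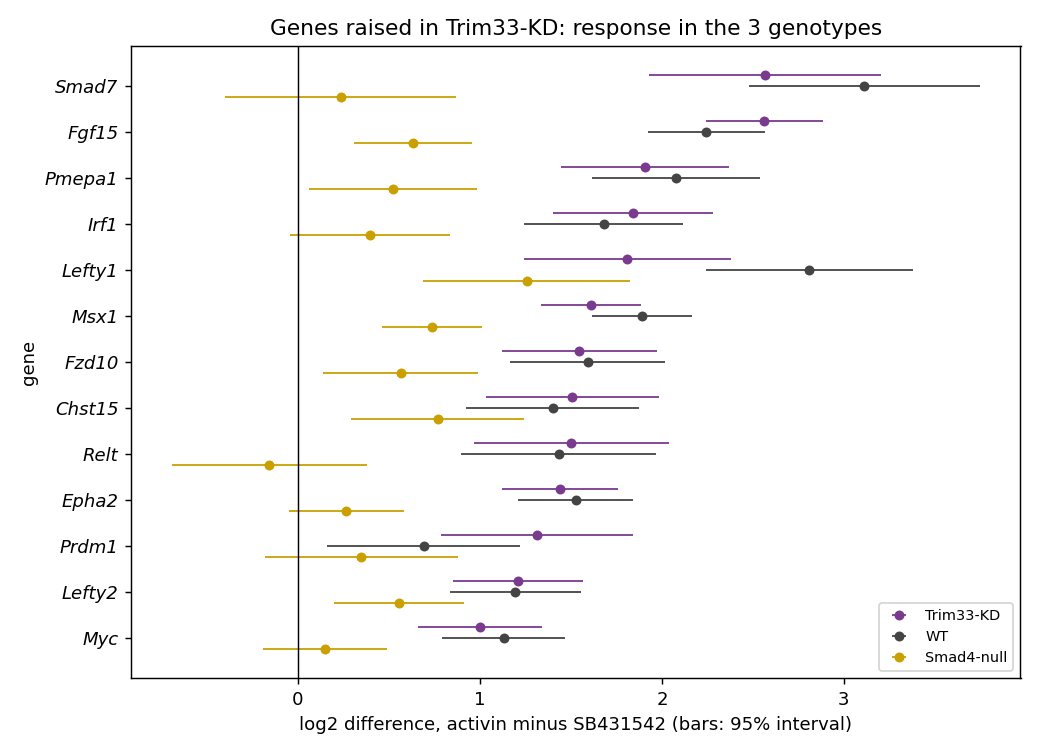
Log2 difference between activin and SB431542 (horizontal axis) with its 95% interval for the 13 genes (rows) in Trim33-KD (purple), WT (grey) and Smad4-null (yellow). Purple and grey points lie close for most genes, with medians of 1.55 and 1.59, while yellow points have a median of 0.52; Lefty1 has 1.81, 2.81 and 1.26.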

How the data were processed

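Total RNA of 12 embryoid body samples was hybridized to Affymetrix mouse arrays, 1 per sample. The authors deposited log2 signals per probe set (the log2 scale was read from the values); with 2% trimmed at each end, the linear signals of every array average 500. Per the submitters' processing notes limma was used; the version and the summarization method are not given in the sources used here. The deposited log2 values were used unchanged.

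Of 45101 probe sets, 34945 had exactly 1 symbol in the platform table, 932 had several and 9160 had none. Each of 18193 genes was read from its brightest such probe set (mean over 12 arrays). A means model of 6 groups (6 residual degrees of freedom) was fitted to all 12 arrays with limma 3.58.1 in R 4.3.3 (lmFit, eBayes), with Benjamini-Hochberg adjustment at 0.05, over all genes and again within the upper 50% by mean signal. Array number limits the precision. Figures used Python 3.11.15 and matplotlib 3.10.9.

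The members and the 28 gene lists were chosen with earlier results of these data known. Genes named were Trim33, Smad4, the genes called, the largest differences without overlap in each direction, and list members; others were chosen after their values were seen. Alternatives were other normalizations, filters, probe set rules, priors, array sets, replicate blocks and leaving out each array. The fit was tested on simulated data. Positions come from RefSeq GRCm38.p6.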

Additional observations from a re-analysis of the deposited data

Results flagged for a closer look

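In the main fit Fgf15 was the only gene of the upper 50% whose response differed between Trim33-KD and Smad4-null by the test of the difference itself (1.93, limma adjusted p = 0.00377). Both Smad4-null activin arrays (9.50 and 9.54) were above the SB431542 arrays there (8.84 and 8.93), so the response was smaller in Smad4-null and of the same direction. In Trim33-KD the mean was 9.69 with activin and 7.13 with SB431542, so the gap between these genotypes was mainly on the SB431542 side.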

How the results depend on the processing

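The count of genes called in the Trim33-KD response rests on which genes are tested and on the spread estimate. Over all genes it was 2; it was 13 within the upper 50%, 9 within the upper 75%, 7 with values floored at 64 (4 raised, 3 lowered), 13 with a trended and robust prior, 1 with probe sets averaged per gene, 1 without cross-hybridizing probe sets, 0 with only the groups compared, 0 without both arrays of narrow spread and 0 to 3 with 1 array left out. Within the upper 50% (these combinations were chosen after the data were seen) it was 13, 6 with only the groups compared, 11 to 16 under the other settings, and 12 to 16 with 1 array left out. Fgf15, Epha2, Fzd10, Msx1 and Pmepa1 were called there under every setting in which they were tested, and all 13 kept a positive difference under each. Lowered genes, 1 to 3, were called there only without Trim33-KD-ac replicate 1, Trim33-KD-ac replicate 2 or Trim33-KD-SB replicate 1, where 1 array is left and is assumed to vary like the other groups.

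The response difference from WT gave 0 calls, 2 with values floored at 64 and 0 to 2 with 1 array left out, and within the upper 50% 0 to 1. The difference from Smad4-null gave 0, 1 within the upper 50%, 11 with the floor, 1 with the trended and robust prior and 0 to 1 with 1 array left out; within the upper 50% it gave 1, 4 with that prior, 3 with array weights, 0 without both arrays of narrow spread and 1 to 2 with 1 array left out. The Trim33 level difference of -1.54 was -1.36 with the mean of probe sets (limma adjusted p = 0.122), -1.54 with only the groups compared (0.109), -1.45 without both narrow arrays (0.0714) and -1.66 to -1.41 with 1 array left out. Ercc2, at -0.49, was at 0.32 with the mean of its probe sets. The cause was not tested.

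The replicate numbers were not treated as pairs: deviations of same-numbered arrays correlated over upper 50% genes by 0.386 in WT, -0.192 in Smad4-null and 0.335 in Trim33-KD. With a replicate block within each genotype the Trim33-KD response gave 0 calls over all genes and 16 within the upper 50%, where the call of Myc was lost, the Smad4-null difference 3 within the upper 50%, and the Trim33 level -1.54 (limma adjusted p = 0.0767). A single block over all groups gave 3 and 15 calls.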

Other observations

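Within Trim33-KD the replicate number went with the level of a set of genes under both treatments, chosen here after their values were seen. Of the upper 50%, 12 genes were at least 2-fold lower on replicate 1 than on replicate 2 with activin and with SB431542, and 2 were at least 2-fold higher. The 10 lower genes with the largest shared difference were Anxa1, Gsn, S100a6, Lgals3, Sfn, AU015836, Krt8, Cavin1, Krt19 and Ltb. Krt8, a keratin of simple epithelia, was at 11.18 and 11.22 on the replicate 1 arrays (activin, SB431542) and at 12.66 and 12.55 on the replicate 2 arrays. Krt19 was at 8.48 and 8.49 against 9.63 and 9.83, and Anxa1, a phospholipid-binding protein, at 7.51 and 7.98 against 9.49 and 10.17. Cdh11, a mesenchymal cadherin, ran the other way, at 8.94 and 8.87 on replicate 1 against 7.32 and 6.96 on replicate 2. The same direction was seen in Fgf8 (11.49 and 10.24 against 10.70 and 9.50). None of these genes was called between the treatments.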
